A study of Mus musculus with 16 samples.

Results

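The comparison described here set resting mouse mast cells treated for 16 h with an agonist antibody against TIM-3 against the same kind of cells treated for 16 h with goat IgG, on 4 of the 16 two-colour arrays of the series. The arrays were taken by their labels: resting cells, 16 h, replicates 1 to 4. The cells were grown from bone marrow for more than 4 weeks in medium with 10% serum, interleukin 3 (5 ng/ml) and stem cell factor (40 ng/ml), and the study's design text describes them as immature, with a purity above 90%. The anti-TIM-3 cells received a polyclonal goat agonist antibody at 15 ug/ml and the IgG cells unspecific goat IgG at 15 ug/ml, and neither received IgE or antigen. The groups used for contrast were resting cells after 2 h with the same antibodies, and cells activated with anti-DNP IgE (5 ug/ml, 1 h) and then DNP-HSA antigen (100 ng/ml) with the same antibodies for 16 h. Each had 4 arrays. Cells activated in the same way, with the same antibodies for 2 h (4 arrays), are also quoted for their ratios. No strain or age is given. Whether replicates are separate cultures is not stated in the labels, and the p-values therefore reflect the spread between these samples alone, which may be technical. Each gene's spread was estimated within the groups over all 16 arrays. The p-values thus do not rest on the SD of the 4 arrays printed beside them.

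TIM-3 is encoded by Havcr2. It is a transmembrane receptor without a classical inhibitory motif in its tail, best known from exhausted T cells and also carried by myeloid cells and mast cells. Its described ligands include galectin-9 and HMGB1, and Bag6 binds its tail. Mast cells store proteases, histamine and serotonin in granules bound to the proteoglycan serglycin, carry the high-affinity IgE receptor, and release cytokines and chemokines when that receptor is crosslinked.

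On each array RNA of the anti-TIM-3 cells carried Cy5 and RNA of the IgG cells Cy3. Values are log2 ratios of anti-TIM-3 over IgG, so a positive value is higher with anti-TIM-3 and a value of 1 is a fold of 2. No array exchanged the dyes, so within the group a gene's own dye bias and the effect of the antibody cannot be told apart. In a difference between groups, any dye bias shared equally by the arrays drops out. A gene is called here where limma's Benjamini-Hochberg adjusted p over all genes tested is under 0.05.

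On the 4 arrays 54.8% to 63.1% of spots passed the scanner's background test in Cy5 and 53.8% to 58.5% in Cy3, and 0 spots were saturated. The arrays fell into pairs. Over the genes of an array the SD of the log2 ratio was 0.217 on replicate 1 and 0.228 on replicate 3, against 0.121 on replicate 2 and 0.127 on replicate 4. The ratios of replicates 1 and 3 correlated across genes with r = 0.792, those of replicates 2 and 4 with r = 0.666, and the other pairs with r = 0.415 to 0.476; genes are not independent replicates, and all arrays share the dye orientation. Replicate 3 of the resting cells at 2 h was also wide for several of the same genes. Where it is left out as well, the mean ratios at 16 h stay the same. Only the estimate of spread, which the groups share, and the adjustment change. Replicates 3 and 4 shared a slide and replicates 1 and 2 lay on slides of their own, so the pairs do not follow the slides. The counts of each gene list against IgG are therefore also given without replicates 1 and 3. They are given too from the scanner software's own processed signals and with median centring in place of loess, relative to the median gene. Over all genes tested, the counts higher and lower were 1995 and 1700 in the main fit and 280 and 98 without replicates 1 and 3. They were 1537 and 1512 from the processed signals and 5666 and 5900 of 17081 with median centring. A list's counts with median centring therefore stand against many more calls.

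**Figure D1:**
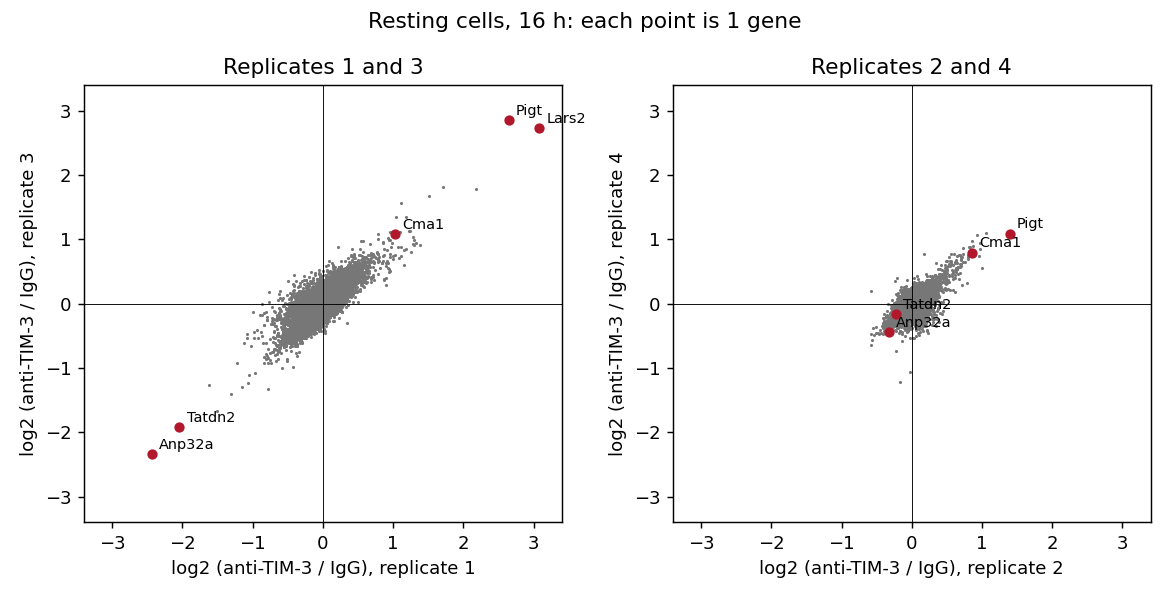
Log2 ratio of anti-TIM-3 over IgG for every gene, replicate 3 against replicate 1 (left) and replicate 4 against replicate 2 (right), resting cells at 16 h. Lars2, Pigt, Anp32a and Tatdn2 lie far from 0 on replicates 1 and 3, and Anp32a and Tatdn2 between -0.44 and -0.17 on replicates 2 and 4; Lars2 has no value on replicate 2.

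With anti-TIM-3, 1995 genes were higher (11.7%) and 1700 lower (9.95%) than with IgG, 21.6% of the 17081 genes tested. The differences were small. The median absolute log2 ratio of the called genes was 0.205, and 8 genes rose and 2 fell by 2-fold or more. Of the called genes, 3458 had the same sign on all 4 arrays. Over all genes tested, 3607 were above 0 and 2983 below 0 on all 4. Without replicates 1 and 3, 378 genes were called, 280 higher and 98 lower (2.21% of those tested), and 359 of them were among the 3695 with the same direction. Without replicate 1 alone 1450 genes were called and without replicate 3 alone 1452, and a fit of the 4 arrays alone called 1729. In that last fit 26 of the 176 named genes lost their call, among them Kit, Lck, Raly and Junb, and 2 gained a call. Of the 1995 higher genes, 1063 had mean ratios above 0 in all 3 other groups. Of the 1700 lower genes, 1044 had mean ratios below 0 in all 3. These groups share the dye orientation, and the share of all genes with such means was not counted.

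Havcr2, the gene of the receptor, had normalized intensities of 8262, 9068, 8085 and 9931 with anti-TIM-3, against 10068, 9876, 10654 and 10933 with IgG on replicates 1 to 4. Its log2 ratios were -0.29, -0.12, -0.40 and -0.14, all below 0, with a mean of -0.24 ± 0.13 (SD, n = 4) and an adjusted p of 0.00855 by limma. Without replicates 1 and 3 the mean was -0.13 and the adjusted p 0.462, a second probe of the gene gave -0.08, and median centring in place of loess put it at 0.05 relative to the median gene. The mean ratio was 0.04 in resting cells at 2 h and 0.08 in activated cells at 16 h, and the difference from activated cells was -0.32 (adjusted p 0.0193). Of 8 tested members of the list of TIM family genes, TIM-3 ligands and adaptors, the counts were 1 higher and 1 lower (0 and 0 without replicates 1 and 3, 1 and 1 from the processed signals, 2 and 4 with median centring). Lgals9, the gene of galectin-9, had ratios of -0.35, -0.08, 0.26 and -0.05, on both sides of 0. Hmgb1 averaged 0.01 and Bag6 0.02, and neither was called. Lck, a lymphocyte kinase that binds the tail of TIM-3 in T cells, was the higher member at 0.15 (adjusted p 0.00927), but it was well above background on 3 arrays in Cy5 and 2 in Cy3, and it lost its call without replicates 1 and 3 (adjusted p 0.17).

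Several genes of the mast cell granule and its contents were higher. Cma1, the gene of the chymase mMCP-5, had intensities of 139010, 138500, 140320 and 122040 with anti-TIM-3, against 68142, 76239, 66359 and 70429 with IgG on replicates 1 to 4. The anti-TIM-3 channel was higher on every array, with log2 ratios of 1.03, 0.86, 1.08 and 0.79 and a mean of 0.94 ± 0.14 (SD, n = 4) (adjusted p 1.94e-08); a second probe gave 0.475. Tph1, which makes the first step of serotonin synthesis, had ratios of 0.93, 0.76, 1.02 and 0.64 (adjusted p 3.05e-07). Srgn, the serglycin core protein, had ratios of 0.63, 0.50, 0.48 and 0.53 (adjusted p 5.35e-06). All 4 arrays of both genes were above 0, and both passed without replicates 1 and 3. From the processed signals Cma1 stood at 0.53 (adjusted p 1.04e-04), Tph1 at 0.39 (adjusted p 0.00159) and Srgn at 0.17 (adjusted p 0.058), so Srgn was not called there. Gzmb, the serine protease granzyme B, averaged 0.68 ± 0.28 (SD, n = 3), and Mcpt8, a protease best known from basophils, 0.34 ± 0.11 (SD, n = 4). The processed signals gave 0.37 for Gzmb. Cpa3, mast cell carboxypeptidase A, averaged 0.66 ± 0.21 (SD, n = 4) with 1 high array, replicate 3 at 0.97, and lost its call without replicates 1 and 3 (adjusted p 0.0769); without replicate 3 at 2 h as well the adjusted p was 0.0336. The tryptase gene Tpsb2 was lower, with ratios of -0.62, -0.31, -0.14 and -0.33, and also lost its call. Of 13 granule proteases tested the counts were 6 higher and 2 lower (3 and 0 without replicates 1 and 3, 5 and 2 from the processed signals, 9 and 3 with median centring), beside 11.7% higher and 9.95% lower of all genes, and the list's median was 0.13 against 0.01 over all genes. That median was 0.07 in resting cells at 2 h, 0.13 in activated cells at 16 h and 0.27 in activated cells at 2 h. Of the 13, 0 differed from 2 h, where 0.287% of all genes did. Compared with activated cells at 16 h, 3 had a higher and 0 a lower ratio, beside 3.87% and 4.71% of all genes. Hdc, the enzyme of histamine synthesis, had ratios of 0.34, 0.15, 0.19 and 0.18 and was not called.

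Some receptors of the mast cell lineage were higher. Of 23 tested the counts were 6 higher and 1 lower (3 and 0 without replicates 1 and 3, 4 and 1 from the processed signals, 18 and 4 with median centring). The list's median was 0.09, and 0.10 in resting cells at 2 h, 0.01 in activated cells at 16 h and 0.04 in activated cells at 2 h. Of the 23, 0 differed from 2 h, where 0.287% of all genes did. Compared with activated cells at 16 h, 5 had a higher and 2 a lower ratio, beside 3.87% and 4.71% of all genes. Il1rl1, the receptor of interleukin 33, had ratios of 0.78, 0.79, 1.01 and 0.72, all above 0 within a narrow range, with a mean of 0.83 ± 0.13 (SD, n = 4) (adjusted p 5.58e-08); its 2 other probes gave -0.36 and 0.06. Fcer1a, the IgE-binding chain of the high-affinity IgE receptor, had ratios of 1.51, 1.67 and 0.80 on the 3 arrays with a value. It was the largest called rise of the list at 1.33. Without replicates 1 and 3 only replicate 4 remained, at 0.80, and a single array gives no spread of this group. The partner chains Fcer1g (0.15) and Ms4a2 (0.06) were not called. Csf2rb and Csf2rb2, the shared and the interleukin-3-specific beta chains, averaged 1.09 ± 0.33 (SD, n = 3) and 0.98 ± 0.25 (SD, n = 3); the 2 other probes of Csf2rb gave -0.25 and -0.11, and the genes are near-identical copies, so a probe may read both. The processed signals gave 0.38 for Il1rl1, 0.70 for Csf2rb and 0.54 for Csf2rb2, all still called. Kit, the receptor of stem cell factor, had ratios of 0.22, 0.27, 0.87 and 0.18, with replicate 3 apart, and lost its call without replicates 1 and 3.

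All 15 mast cell markers were well above background in both channels on all 4 arrays. The counts were 9 higher and 1 lower (4 and 0 without replicates 1 and 3, 4 and 1 from the processed signals, 14 and 0 with median centring). Their median was 0.22, against 0.13 from the processed signals, with medians per array of 0.29, 0.15, 0.48 and 0.23. It was 0.19 in resting cells at 2 h, 0.34 in activated cells at 16 h and 0.12 in activated cells at 2 h. Of the 15, 0 differed from 2 h, where 0.287% of all genes did. Compared with activated cells at 16 h, 3 had a higher and 1 a lower ratio, beside 3.87% and 4.71% of all genes. Markers of other cell types gave the following. Of 20 macrophage and dendritic cell markers the counts were 1 higher and 2 lower (0 and 0 without replicates 1 and 3, 0 and 2 from the processed signals, 4 and 6 with median centring). Of 8 neutrophil markers they were 0 higher and 1 lower (0 and 0 without replicates 1 and 3, 0 and 1 from the processed signals, 0 and 7 with median centring). Of 9 basophil markers they were 3 higher and 0 lower (2 and 0 without replicates 1 and 3, 1 and 0 from the processed signals, 5 and 0 with median centring). Of 4 eosinophil markers they were 0 higher and 0 lower (0 and 0 without replicates 1 and 3, 0 and 0 from the processed signals, 0 and 4 with median centring). Of 11 lymphocyte markers they were 2 higher and 1 lower (0 and 0 without replicates 1 and 3, 2 and 2 from the processed signals, 0 and 10 with median centring). Of 7 erythroid and megakaryocyte markers they were 0 higher and 1 lower (1 and 0 without replicates 1 and 3, 0 and 1 from the processed signals, 1 and 5 with median centring). Of 7 fibroblast and stromal markers they were 1 higher and 0 lower (0 and 0 without replicates 1 and 3, 1 and 0 from the processed signals, 1 and 4 with median centring). Their part in the results was not tested. Of 18 mast cell transcription factors the counts were 2 higher and 6 lower (1 and 0 without replicates 1 and 3, 0 and 6 from the processed signals, 5 and 2 with median centring). Gata2, a factor that mast cells need to form, had ratios of 0.42, 0.46, 0.53 and 0.33 (adjusted p 8.04e-06), and Tal1, its partner in blood progenitors, 0.43, 0.40, 0.38 and 0.27; a second probe of Gata2 gave 0.14. Myb averaged -0.29 ± 0.13 (SD, n = 4) and Spi1, the gene of PU.1, -0.33 ± 0.20 (SD, n = 4). Without replicates 1 and 3 Gata2 passed and the other 3 did not, and from the processed signals Gata2 was at 0.10 (adjusted p 0.141) and not called.

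Other genes of mast cell effector function were higher on every array with a value. Alox5, 5-lipoxygenase, which starts leukotriene synthesis, had ratios of 0.58, 0.59, 0.60 and 0.59 (adjusted p 1.00e-07). Cd63, a granule membrane protein that reaches the surface on degranulation, had 0.69, 0.70 and 0.59 on its 3 arrays. Pirb, a paired inhibitory receptor, had 0.40, 0.69, 0.53 and 0.61 (adjusted p 4.63e-06), while Sirpa, another inhibitory receptor, was lower at -0.32 ± 0.12 (SD, n = 4). Of 13 inhibitory receptors and phosphatases the counts were 1 higher and 1 lower (1 and 0 without replicates 1 and 3, 1 and 1 from the processed signals, 9 and 1 with median centring). Among 30 lysosomal genes they were 4 higher and 4 lower (1 and 0 without replicates 1 and 3, 2 and 4 from the processed signals, 23 and 1 with median centring). From the processed signals Alox5 stood at 0.25, Cd63 at 0.25 and Pirb at 0.24, all still called. Psap, the saposin precursor, had ratios of -1.08, -0.22, -0.47 and -0.32, lowest on replicate 1, and Mcoln1, a lysosomal cation channel, -0.39, -0.26, -0.54 and -0.36. Sirpa, Psap and Mcoln1 lost their calls without replicates 1 and 3, and a second probe of Mcoln1 gave 0.03.

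The list with the most calls was that of the cytosolic ribosomal proteins. Of 80 tested the counts were 61 higher and 2 lower (50 and 0 without replicates 1 and 3, 32 and 5 from the processed signals, 76 and 0 with median centring). The list's median was 0.44, with array medians of 0.39, 0.41, 0.40 and 0.47, and it was 0.41 in resting cells at 2 h, 0.35 in activated cells at 16 h and 0.39 in activated cells at 2 h. The median from the processed signals was 0.15. Rps23 had ratios of 0.96, 1.05, 0.99 and 1.10, Rpl37a 0.97, 0.86, 0.88 and 0.98 and Rpl5 0.86, 0.88, 0.94 and 0.77, all far from 0 with little spread. Rack1, a ribosome-bound scaffold, had 0.98, 0.97, 0.95 and 0.86, but its second probe gave 0.01. With the processed signals Rps23 stood at 0.59, Rpl37a at 0.55, Rpl5 at 0.52 and Rack1 at 0.59. Of 36 translation factors the counts were 10 higher and 5 lower (1 and 3 without replicates 1 and 3, 3 and 5 from the processed signals, 32 and 0 with median centring). Eef1a1, the elongation factor that brings aminoacyl-tRNA to the ribosome, averaged 0.42 ± 0.12 (SD, n = 4) and lost its call without replicates 1 and 3. Eif4g1, the cap-complex scaffold, averaged -0.27 ± 0.21 (SD, n = 4) and its second probe gave -0.01. Its call was lost in 8 of 19 alternatives, among them the processed signals (adjusted p 0.0624) and the 4 arrays alone (adjusted p 0.0637). Of 40 mitochondrial ribosomal proteins the counts were 7 higher and 3 lower (0 and 0 without replicates 1 and 3, 5 and 3 from the processed signals, 32 and 0 with median centring).

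Of 65 respiratory chain genes the counts were 23 higher and 2 lower (8 and 0 without replicates 1 and 3, 12 and 7 from the processed signals, 62 and 0 with median centring). Atp5b, the beta subunit of ATP synthase, had ratios of 0.54, 0.38, 0.51 and 0.45, and Uqcrh, a subunit of complex III, 0.58, 0.48, 0.49 and 0.39. Of 29 glycolysis and hypoxia genes the counts were 10 higher and 5 lower (3 and 0 without replicates 1 and 3, 8 and 3 from the processed signals, 19 and 2 with median centring). Aldoa, aldolase A, averaged 0.68 ± 0.11 (SD, n = 3) and Ldha, lactate dehydrogenase A, 0.54 ± 0.09 (SD, n = 4). Eno1, enolase 1, was lower, with ratios of -0.80, -0.55, -0.25 and -0.38. Of 46 actin cytoskeleton genes the counts were 10 higher and 5 lower (4 and 1 without replicates 1 and 3, 3 and 9 from the processed signals, 30 and 2 with median centring), and the median was -0.03. Tmsb4x, the actin-monomer binder thymosin beta 4, had ratios of 1.04, 0.83, 1.35 and 0.89, and Arpc1b, which belongs to the Arp2/3 complex of actin branching, 1.10, 0.88, 1.12 and 0.89. Arpc4, of the same complex, had -0.59, -0.31, -0.31 and -0.28, with replicate 1 apart. Eno1 and Arpc4 lost their calls without replicates 1 and 3. From the processed signals Atp5b stood at 0.20, Uqcrh at 0.23, Aldoa at 0.23, Ldha at 0.20, Tmsb4x at 0.69 and Arpc1b at 0.64, all still called.

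The largest falls that were also called without replicates 1 and 3 belonged to genes of varied function. Arhgef1, a guanine exchange factor for RhoA, had intensities of 1004, 1124, 1027 and 1001 with anti-TIM-3, against 1826, 1676, 1456 and 1564 with IgG on replicates 1 to 4. Every array was lower with anti-TIM-3, with log2 ratios of -0.86, -0.58, -0.50 and -0.64 (adjusted p 1.88e-04). Vamp2, a vesicle fusion protein, had ratios of -0.69, -0.47, -0.53 and -0.47, but its 2 other probes lay near 0 (-0.01 and 0.00). Sema6b, a transmembrane semaphorin, had -0.54, -0.58, -0.50 and -0.47 and Ogfr, the opioid growth factor receptor, -0.52, -0.57, -0.41 and -0.57; both had a narrow range. Numa1, a mitotic spindle protein, had -0.85, -0.34, -0.61 and -0.37, lowest on replicate 1. Sinhcaf, a subunit of the Sin3 corepressor, had -0.71, -0.36, -0.59 and -0.41, and Rab1b, a GTPase of transport from the endoplasmic reticulum, -0.42, -0.37, -0.48 and -0.34. Ostf1, Ergic3, Zadh2, Slc35c1 and Pkig averaged -0.47, -0.45, -0.44, -0.42 and -0.42. Pim1, a kinase induced by STAT5, averaged -0.34 ± 0.08 (SD, n = 4). Other probes lay nearer 0 for Numa1 (0.04), Sinhcaf (0.00), Rab1b (-0.06), Slc35c1 (-0.09) and Pim1 (-0.03).

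**Figure D2:**
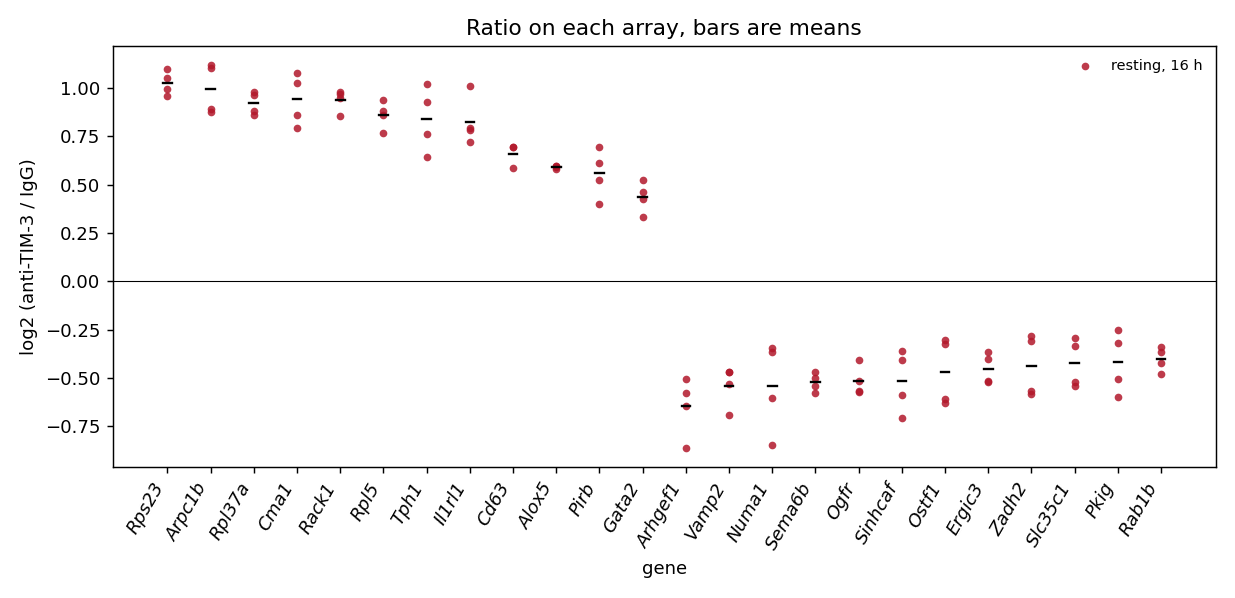
Log2 ratio of anti-TIM-3 over IgG on each array of resting cells at 16 h (points) and the mean (bars) for 12 genes that rose and 12 that fell. The 4 points of a gene lie on 1 side of 0 in every case, and Rps23 spans 0.96 to 1.10 and Arhgef1 -0.86 to -0.50; Cd63 has 3 points.

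Of 54 genes of splicing and nuclear RNA binding the counts were 7 higher and 14 lower (0 and 1 without replicates 1 and 3, 3 and 14 from the processed signals, 32 and 6 with median centring). Prpf19, a core splicing factor, had ratios of -0.97, -0.23, -1.07 and -0.41, Raly -1.06, -0.27, -1.11 and -0.13 and Hnrnpl -0.84, -0.29, -0.93 and -0.17; replicates 1 and 3 lay far below replicates 2 and 4 in each. The histone methyltransferase Ehmt1 had -0.78, -0.30, -0.84 and -0.44 and the cyclic AMP phosphodiesterase Pde4a -0.73, -0.32, -0.92 and -0.44. All 5 genes lost their calls without replicates 1 and 3. Of 34 chromatin methyltransferases and repressors the counts were 3 higher and 7 lower (0 and 1 without replicates 1 and 3, 1 and 5 from the processed signals, 12 and 4 with median centring).

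The widest genes followed the same arrays. Lars2, mitochondrial leucyl-tRNA synthetase, had ratios of 3.08, 2.73 and 0.66 on replicates 1, 3 and 4, and Pigt, a subunit of the GPI transamidase, 2.65, 1.39, 2.85 and 1.09 on replicates 1 to 4. Anp32a, a nuclear phosphoprotein, had -2.43, -0.32, -2.34 and -0.44 and Tatdn2 -2.04, -0.22, -1.92 and -0.17. Replicates 1 and 3 stood well apart from the others. Without them Lars2 kept a value on replicate 4 alone, at 0.66. The adjusted p was then 0.24 for Pigt, 0.672 for Anp32a and 0.773 for Tatdn2. Without replicate 3 at 2 h as well it was 0.0244 for Pigt, 0.0224 for Anp32a and 0.745 for Tatdn2. Pigt and Anp32a were thus called there, with their mean ratios unchanged. On replicate 3 of the resting cells at 2 h Lars2 stood at 2.26, Pigt at 2.75 and Anp32a at -2.40. A second probe gave -0.22 for Pigt and -0.22 for Anp32a. In all, 33 genes had an SD over 0.5 across the 4 arrays.

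The counts of the signalling and stress lists depended on the scaling, and median centring called 5666 of all 17081 genes higher and 5900 lower. Of 26 unfolded protein response genes the counts were 0 higher and 7 lower (0 and 0 without replicates 1 and 3, 0 and 6 from the processed signals, 18 and 1 with median centring). Of 28 ATF4 targets and amino acid supply genes they were 2 higher and 9 lower (0 and 1 without replicates 1 and 3, 2 and 6 from the processed signals, 12 and 6 with median centring). Of 22 NF-kappaB genes they were 2 higher and 6 lower (0 and 0 without replicates 1 and 3, 1 and 5 from the processed signals, 9 and 4 with median centring). Bcl3 averaged -0.36 ± 0.17 (SD, n = 4) and Nfkb2 -0.18 ± 0.11 (SD, n = 4), both subunits or partners of the factor, and neither passed without replicates 1 and 3. Cflar, an inhibitor of caspase 8, averaged -0.48 ± 0.21 (SD, n = 4) and lost its call likewise, but was called without replicate 3 at 2 h as well (adjusted p 0.0383). Of 24 apoptosis regulators the counts were 5 higher and 5 lower (0 and 0 without replicates 1 and 3, 3 and 4 from the processed signals, 13 and 2 with median centring). Of 37 genes of IgE receptor signalling they were 4 higher and 3 lower (0 and 0 without replicates 1 and 3, 2 and 5 from the processed signals, 22 and 6 with median centring). Sqstm1, an autophagy adaptor, had ratios of 0.83, 0.68, 0.63 and 0.48, and Fth1, the ferritin heavy chain, 0.66, 0.59 and 0.57 on its 3 arrays. Sqstm1 lost its call without replicates 1 and 3 (adjusted p 0.0693) and was called without replicate 3 at 2 h as well (0.0383). From the processed signals Fth1 stood at 0.17 (adjusted p 0.0514) and was not called.

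**Figure D3:**
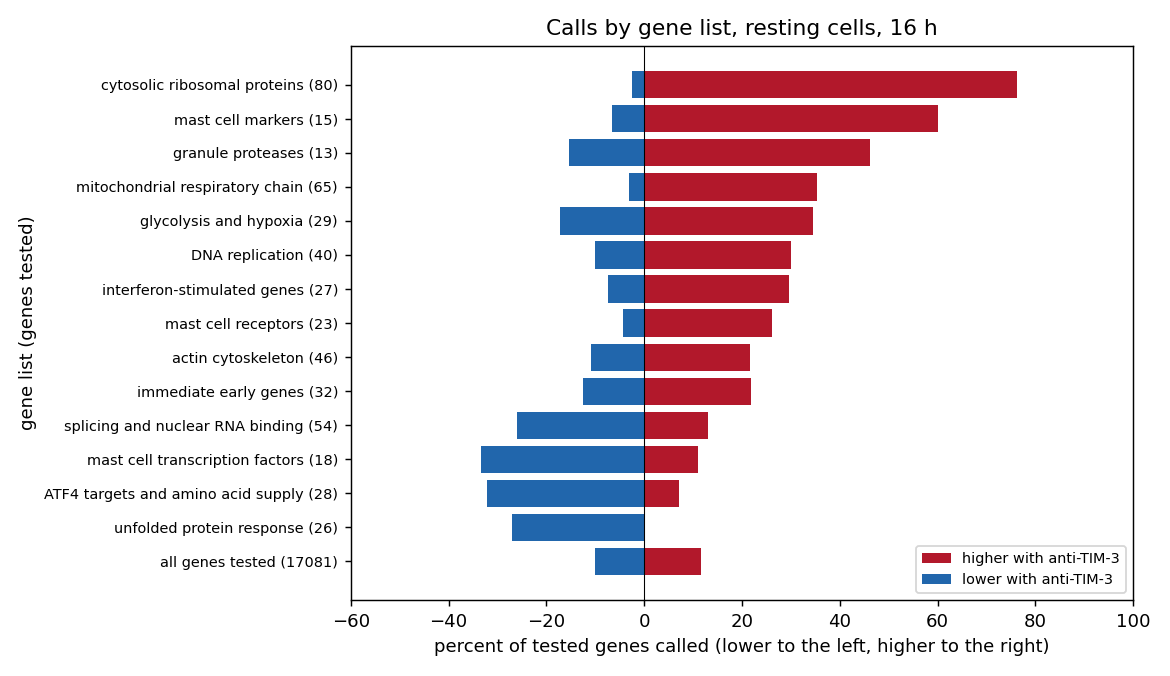
Percent of the tested genes of each list called higher (right) or lower (left) with anti-TIM-3 than with IgG in resting cells at 16 h, with all genes at the bottom. The cytosolic ribosomal proteins reach 61 of 80 higher, and the unfolded protein response has 0 of 26 higher. With median centring the latter was 18 of 26, where 5666 of all 17081 genes were higher.

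Chemokine genes and immediate early genes, which mast cells induce on activation, were mostly near 0 at 16 h. Of 22 chemokines the counts were 5 higher and 3 lower (2 and 0 without replicates 1 and 3, 5 and 3 from the processed signals, 6 and 8 with median centring). Of 32 immediate early genes they were 7 higher and 4 lower (2 and 0 without replicates 1 and 3, 3 and 5 from the processed signals, 14 and 5 with median centring). Ccl2, the monocyte chemoattractant MCP-1, had intensities of 58000, 56384, 57643 and 61040 with anti-TIM-3, against 45524, 40031, 43749 and 42478 with IgG on replicates 1 to 4. Its ratios were 0.35, 0.49, 0.40 and 0.52, all above 0 (adjusted p 2.06e-05). It passed without replicates 1 and 3, but from the processed signals it stood at 0.17 (adjusted p 0.0504) and was not called. Ccl9 averaged 0.22 ± 0.10 (SD, n = 4) and Ccl5 -0.36 ± 0.18 (SD, n = 4), and both lost their calls without replicates 1 and 3. Fos, a component of the AP-1 factor, had ratios of 0.39, 0.61, 0.50 and 0.40 and Junb, another, 0.14, 0.48, 0.10 and 0.33. The cytokine genes Tnf and Il6 averaged 0.14 and -0.02 and were not called, and of 29 cytokines and growth factors the counts were 2 higher and 2 lower (0 and 0 without replicates 1 and 3, 5 and 0 from the processed signals, 7 and 13 with median centring). Of the genes named as called against IgG, the processed signals also left without a call Kit, Cpa3, Tal1, Sqstm1 and Junb, at 0.13, 0.27, 0.15, 0.32 and 0.09. They put Fos at 0.79, Lck at 0.42 and Eef1a1 at 0.20, all still called.

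The response at 16 h was compared with that at 2 h in resting cells, where an equal dye bias cancels. Of 17080 genes, 49 differed (0.287%), 15 with a higher ratio at 16 h (0.0878%) and 34 with a lower one (0.199%). All 34 lower genes had mean ratios above 0 at 2 h. Ccl3, the macrophage chemokine MIP-1 alpha, had ratios of -0.12, 0.21, -0.07 and 0.16 at 16 h, against 1.22, 1.44, 1.15 and 1.32 at 2 h. The groups did not overlap, and the difference was -1.24 (SE 0.10, adjusted p 9.09e-06). Its neighbour Ccl4 had -0.59, 0.00, -0.38 and 0.02 at 16 h, against 0.86, 1.42, 0.60 and 1.13 at 2 h. Egr3, an immediate early factor, had -0.51, 0.03, -0.43 and -0.13 at 16 h, against 1.14, 1.12, 0.96 and 0.77 at 2 h, and the immediate early nuclear receptor Nr4a1 -0.20, 0.00, -0.16 and -0.04 at 16 h, against 0.73, 0.94, 0.73 and 0.81 at 2 h. None of these pairs of groups overlapped. Ccl2 had 0.35, 0.49, 0.40 and 0.52 at 16 h, against 1.14, 1.28, 1.00 and 1.11 at 2 h, so it was above 0 at both times and lower at 16 h, with a difference of -0.69 (adjusted p 1.41e-04).

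The other genes with a lower ratio at 16 h included the chemokine Ccl7 (difference -0.65), the cytokine genes Il6 (-0.48) and Csf1 (-0.49), the G-protein regulators Rgs2 (-0.49) and Rgs16 (-0.54), the kinase Plk3 (-0.54), the phosphatase Ptpn22 (-0.50), the small Maf factor Maff (-0.46) and the neuropeptide gene Calca (-0.63). Ftl1, the ferritin light chain, differed by -0.70 and the processed copy Ftl2-ps by -0.81, and these share sequence, so they may be 1 signal. Fst, the activin inhibitor follistatin, was not well above background on any of the 4 arrays at 16 h in either channel. Of the 34, 9 were also called lower than IgG at 16 h, among them Zfr (-0.40) and Hic1 (-0.23), which both lost that call without replicates 1 and 3, 5 were called higher than IgG and 20 were not called.

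Of the 15 genes with a higher ratio at 16 h, 12 had mean ratios below 0 at 2 h. The calls on this side depended on the setting. From the processed signals 2 of 19 calls were higher, with the groups compared alone 1 of 8, and without replicates 1 and 3 0 of 4. With array weights 226 of 424 were higher. Several of the 15 genes act in cell proliferation. Stmn1, the microtubule-destabilizing protein stathmin, had ratios of 0.66, 0.30, 0.50 and 0.31 at 16 h, against -0.35, 0.02, -0.19 and 0.01 at 2 h. Donson, a replication fork protein, had 0.54, 0.20, 0.44 and 0.29 at 16 h, against -0.25, 0.11, -0.18 and 0.01 at 2 h. The groups did not overlap in either. The replicative helicase subunits Mcm2, Mcm3 and Mcm7 differed by 0.37, 0.25 and 0.30, and these were the 3 of 40 DNA replication genes called, with a list median of 0.19 for the difference. Serpina3g, a serine protease inhibitor, had 0.78, 0.63, 0.68 and 0.53 at 16 h, against 0.14, 0.25, 0.17 and 0.17 at 2 h (adjusted p 0.00479), and Prnp, the prion protein, 0.53, 0.46, 0.76 and 0.33 at 16 h, against -0.07, -0.10, 0.22 and -0.02 at 2 h (adjusted p 0.0199). H1f1, a linker histone, differed by 0.40. The remaining genes were Fam110b, Mettl7a1, Hddc3, Pimreg, Mns1, Ipo4 and Nudt7, with differences of 0.24 to 0.58.

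The count of genes that differed between the times rested on single arrays. Leaving out 1 array of the cells at 16 h gave 23 calls without replicate 1, 316 without replicate 2, 24 without replicate 3 and 634 without replicate 4. At 2 h it gave 25 without replicate 1 and 1957 without replicate 3. Without replicates 1 and 3 of the cells at 16 h the calls were 4 genes, Ccl2, Ccl3, Egr3 and Nr4a1. Without those arrays and replicate 3 at 2 h there were 7, of which 6 were among the 49. All 49 kept their direction without replicate 3 at 2 h, without replicates 1 and 3 at 16 h, and without all 3. The unadjusted p was under 0.05 for 3822 genes. The 49 genes kept their direction within slides 2 and 4, as did 48 of the 48 with a value within slide 1. The 49 were chosen for this difference on these same arrays. A kept direction, within slides or with arrays left out, was thus largely fixed in advance. For Ccl3 the within-slide differences of 16 h minus 2 h were -1.28 on slide 1, -1.01 on slide 2 and -1.57 on slide 4.

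**Figure D4:**
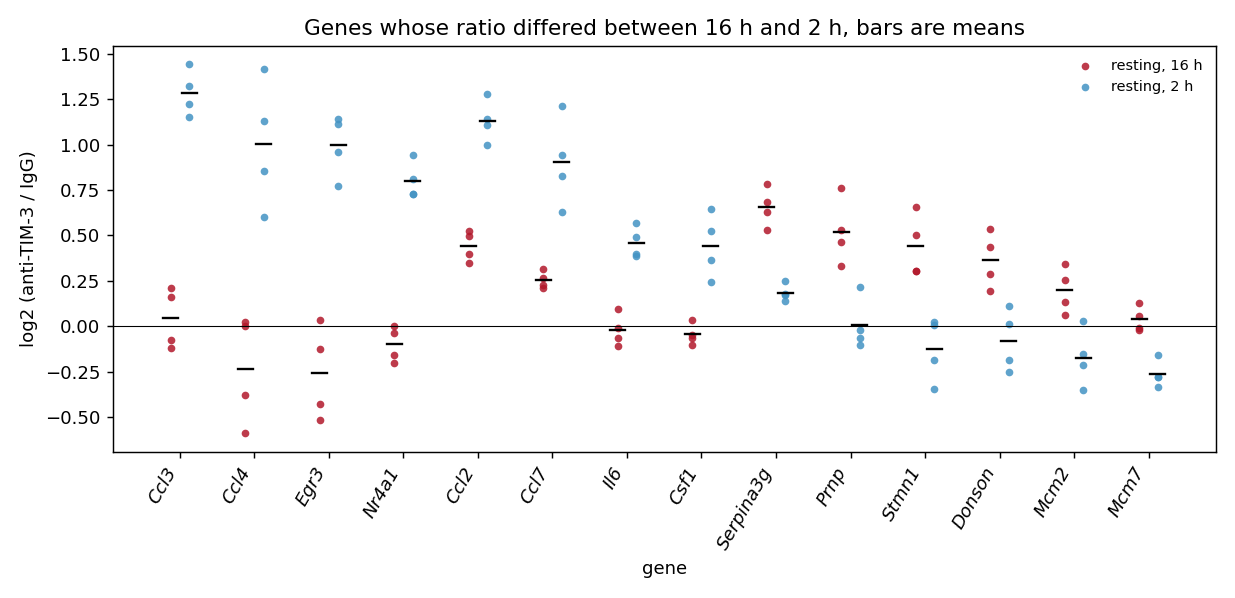
Log2 ratio of anti-TIM-3 over IgG on each array of resting cells at 16 h (red) and 2 h (blue), with means as bars, for 14 genes whose ratio differed between the times. The 8 genes on the left are lower at 16 h, and the 6 on the right are higher.

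Promoter sequence of genes with a changed ratio was read from RefSeq (GRCm38.p6) where the table held the gene, as a description. The first search was for 4 forms of the site of the E2F cell cycle factors, on both strands in the 150 bases before the start site. Of the 15 genes higher at 16 h 12 had a promoter entry, and 0 held them. Of the 34 lower genes 26 had an entry, and 1 held them (3.85%), against 1.28% of all 32843 promoter entries. A gene counted where any of its entries matched, so shares of genes and of entries are not like for like. A second search, of 4 motifs of stimulus-responsive factors, was chosen after the first had found 0 matches in the higher genes. TGACGT was in 4 of the 26 lower genes (15.4%) and 0 of the 12 higher genes, against 5.15% of all promoter entries. The NF-kappaB motif was in 3 and 1, against 3.05% of all entries. TGAGTCA was in 0 and 1, against 2.84%, and the CArG box in 0 and 0, against 0.92%. Of the 5 genes described first for the difference, Nr4a1, Egr3, Ccl2, Ccl3 and Ccl4, only Nr4a1 and Ccl3 had an entry. These lay on the plus strand at chr15:101266696-101266845 and on the minus strand at chr11:83649379-83649528. They are shown because they had an entry, and their calls held without replicates 1 and 3. Neither holds any of the letters searched, so no base is in capitals.
Nr4a1: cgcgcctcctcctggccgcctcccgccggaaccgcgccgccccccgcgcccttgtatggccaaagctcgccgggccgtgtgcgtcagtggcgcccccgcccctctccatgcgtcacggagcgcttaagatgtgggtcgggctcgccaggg
Ccl3: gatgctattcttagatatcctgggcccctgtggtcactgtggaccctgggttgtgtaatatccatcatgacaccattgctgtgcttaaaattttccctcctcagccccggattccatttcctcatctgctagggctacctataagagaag

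The response of resting cells at 16 h was also set against that of activated cells at 16 h. Of 17081 genes 1465 differed (8.58%), with a higher ratio in resting cells for 661 (3.87%) and a lower one for 804 (4.71%). Without replicates 1 and 3 of the resting cells 528 differed, 491 of them among the 1465. Leaving out 1 array gave 908 without replicate 1 and 926 without replicate 3 of the resting cells, and 862 without replicate 1 of the activated cells. The genes below were named by the size of the difference, after their values were seen. Those with a lower ratio in resting cells had means of -0.08 to 0.25 there. Lars2 had a higher ratio in resting cells, with a difference of 1.99 and a resting mean of 2.155. As given above, that mean rested largely on replicates 1 and 3. Penk, the enkephalin precursor, had ratios of -0.01, 0.12, 0.06 and -0.10 in resting cells, against 2.56, 2.72, 2.46 and 2.58 in activated cells (difference -2.56, adjusted p 1.67e-09). Igfbp5, which binds insulin-like growth factors, had 0.09, 0.13, 0.67 and 0.09 in resting cells, against 2.45, 1.93, 1.88 and 2.02 in activated cells. The chemokines Ccl17 and Ccl1 had mean ratios of 0.04 and 0.11 in resting cells, against 1.81 and 1.64 in activated cells. Plet1, an epithelial progenitor marker, averaged -0.07 in resting cells, against 2.38 in activated cells, and was well above background on 3 of 4 resting arrays in Cy5 and 2 in Cy3.

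In the other direction, genes of myeloid and interferon responses were below 0 in activated cells and near or above 0 in resting cells. Lyz2, lysozyme, had ratios of 0.42, 0.03, 0.39 and 0.40 in resting cells, against -0.83, -0.55, -0.66 and -0.76 in activated cells. Tgfbi, an extracellular matrix protein, averaged -0.02 in resting cells, against -1.17 in activated cells, Hp, haptoglobin, 0.13 against -1.03, and Clec7a, the beta-glucan receptor, -0.03 against -1.02. Of 20 macrophage and dendritic cell markers 8 had a higher ratio in resting cells and 2 a lower one. The list's median was -0.03 in resting cells, against -0.27 in activated cells. Of the 20 markers tested, 19 were well above background in Cy5 and 19 in Cy3 on every resting array at 16 h. The part of such cells in the result was not tested. Of 27 interferon-stimulated genes 14 had a higher ratio in resting cells and 0 a lower one, with medians of 0.10 in resting and -0.23 in activated cells. The resting medians of replicates 1 to 4 were 0.094, 0.013, 0.146 and 0.007, and the median without replicates 1 and 3 was -0.001. For the difference from activated cells, the counts of this and the other lists were not made without those arrays. Rsad2, viperin, averaged 0.10 in resting cells, against -0.84 in activated cells. Against IgG in resting cells the counts of the 27 were 8 higher and 2 lower (0 and 0 without replicates 1 and 3, 7 and 2 from the processed signals, 14 and 1 with median centring).

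Immediate early genes differed in the same way, with 9 of 32 higher and 2 lower in resting cells. Ier2 had ratios of 0.23, 0.19, 0.34 and 0.13 in resting cells, against -0.81, -0.72, -0.59 and -0.67 in activated cells (difference 0.92, adjusted p 2.04e-07). Tnf averaged 0.14 in resting cells, against -0.53 in activated cells. DNA replication genes went the other way: 0 of 40 were higher and 16 lower in resting cells, and the medians were 0.05 in resting and 0.23 in activated cells. Against IgG in resting cells the counts of the 40 were 12 higher and 4 lower (0 and 0 without replicates 1 and 3, 9 and 6 from the processed signals, 30 and 0 with median centring). Pcna, the sliding clamp of DNA polymerase, had ratios of 0.56, 0.36, 0.62 and 0.26 and Mcm4, of the replicative helicase, 0.17, 0.18, 0.24 and 0.21, while Uhrf1, which maintains DNA methylation, had -0.53, -0.20, -0.59 and -0.14; all 3 lost their calls against IgG without replicates 1 and 3. The cell cycle factor E2f1 had 0.54, 0.37, 0.68 and 0.21 and kept its call without replicates 1 and 3, but its second probe gave -0.10. Of the genes called against IgG and, in the same direction, in both differences, there were 2: Prnp, with a mean ratio of 0.52 and differences of 0.51 from 2 h and 0.90 from activated cells, and Mmd, with -0.16, -0.47 and -0.23. The call of Mmd against IgG was lost in 8 of 19 alternatives (adjusted p 0.723 without replicates 1 and 3), and that of Prnp was lost from the processed signals, at 0.17 (adjusted p 0.0804). Within the slides that held arrays of both groups, 1461 of 1461 genes with a value kept their direction within slide 4 and 1451 of 1453 within slide 1. These genes were called for the difference from activated cells on the same arrays, so this was largely fixed in advance.

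**Figure D5:**
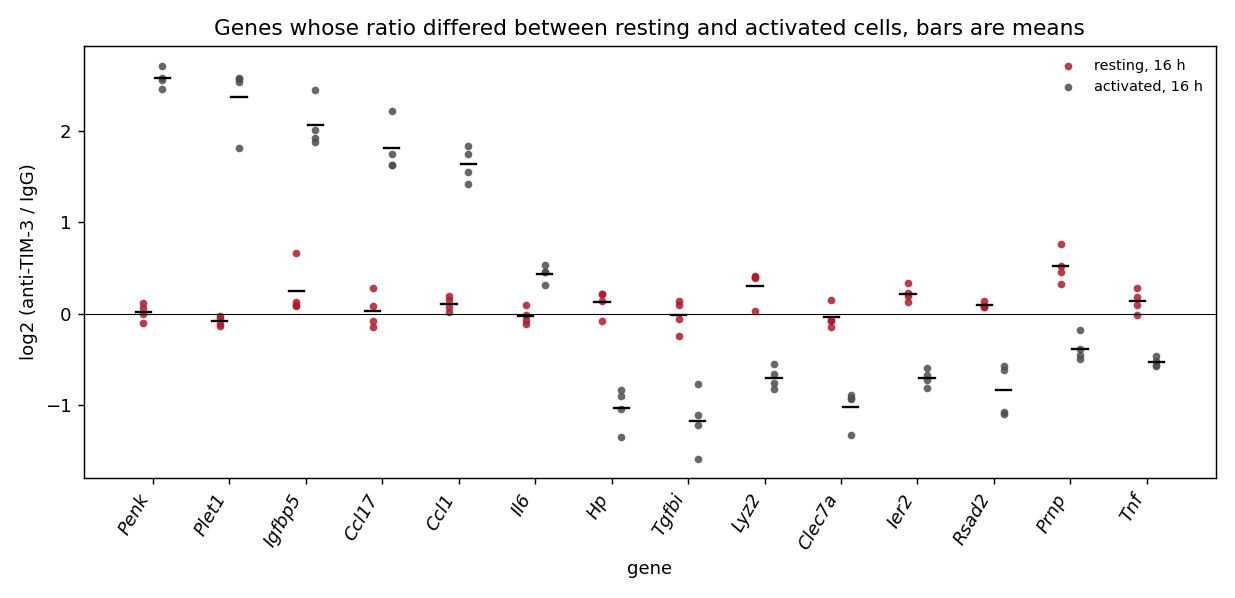
Log2 ratio of anti-TIM-3 over IgG on each array of resting (red) and activated (grey) cells at 16 h, with means as bars, for 14 genes whose ratio differed between them. Penk, Plet1, Igfbp5, Ccl17 and Ccl1 lie near 0 in resting cells and above 1 in activated cells; Hp, Tgfbi, Lyz2, Clec7a, Ier2, Rsad2 and Tnf are below 0 in activated cells.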

How the data were processed

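Resting mast cells after 16 h with anti-TIM-3 (Cy5) or IgG (Cy3) were compared on 4 arrays. The deposited files hold linear spot intensities, which Agilent Feature Extraction read (9.1.3.1 per the file headers, 9 per the submitters' processing notes). Per the labels, Agilent's dual-color protocol 5.5 was followed. The authors' deposited value table holds log10 ratios of processed Cy5 over Cy3, identical to the scanner files' log ratios (largest difference 0), with column medians of 0, and served as an alternative.

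With limma 3.58.1 in R 4.3.3, mean intensities were background-corrected by normexp (offset 50) and normalized by loess within arrays, without weight for the 1639 control spots and outliers. Outlier spots were then left out (596 of 273312 gene values). Probes were kept that passed the scanner's background test, in Cy5 or Cy3, on 3 or more of the 4 arrays of a group (25394 of 41174), and the brightest probe stood for each of 17082 genes, of which 17081 could be tested. Of these genes 5869 had further kept probes, which differ in places. Of the probes, 22951 were named by RefSeq accession, 6659 by current and 3109 by older symbol, and 8455 kept the file's name.

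One model of all 16 arrays with group means (lmFit and eBayes; two-sided p, Benjamini-Hochberg adjusted) tested the ratio against 0 and its difference from resting cells at 2 h and from activated cells at 16 h. With 4 arrays alone an exact sign-flip test cannot go below 0.125 for a single gene. Intensities printed are on the scale after normalization between arrays. Alternatives changed background correction, normalization, probe filter, spread estimate, blocks and arrays.

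The 46 gene lists (1192 genes) and the samples described were chosen with earlier results of these data known. Genes were named by rule: Havcr2, the 15 highest and 15 lowest called genes with 1 sign on all 4 arrays, the 12 highest and 12 lowest that also pass without replicates 1 and 3, those called in both differences, the 10 with the largest SD, and up to 6 called and 3 bright members of each list. The genes of the 2 differences were named after their values were seen. Promoters were searched for letters in 2 rounds, and the second set of letters was chosen after the first search had found 0 matches in the higher genes.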

Additional observations from a re-analysis of the deposited data

Results flagged for a closer look

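Among the genes named, 1 of the 4 arrays of resting cells at 16 h stood apart from the other 3 beyond Dixon's critical value in Kit (0.87, replicate 3), Cpa3 (0.97, replicate 3), Myl6 (0.58, replicate 1), Arpc4 (-0.59, replicate 1), Pim1 (-0.23, replicate 3), Igfbp5 (0.67, replicate 3) and Lyz2 (0.0315, replicate 2), each as the log2 ratio on that array. Chance marks about 1 in 20 groups. Igfbp5 was not called against IgG, and the calls of Kit, Cpa3 and Arpc4 did not hold without replicates 1 and 3. That of Lyz2 did not hold without these and replicate 3 at 2 h (adjusted p 0.152 by limma). Those of Myl6 and Pim1 held in all 19 alternatives.

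The difference of the log2 ratio of anti-TIM-3 over IgG, 16 h minus 2 h in resting cells, passed limma's test of the difference itself for the named genes Nudt7 0.24, Mcm3 0.25, Ipo4 0.25, Mns1 0.30, Mcm7 0.30, Pimreg 0.31, Mcm2 0.37, H1f1 0.40, Hddc3 0.41, Donson 0.44, Serpina3g 0.47, Mettl7a1 0.50, Prnp 0.51, Stmn1 0.57 and Fam110b 0.58, which were higher at 16 h. It passed with a lower ratio at 16 h for Aldoa -0.45, Ccl2 -0.69, Ccl3 -1.24, Ccl4 -1.24, Ccl7 -0.65, Il6 -0.48, Egr3 -1.26, Ftl1 -0.70, Nr4a1 -0.90, Ftl2-ps -0.81, Calca -0.63, Slc6a9 -0.56, Midn -0.56, Auts2 -0.55, Rgs16 -0.54, Plk3 -0.54, Fst -0.52, Ptpn22 -0.50, Rgs2 -0.49, Csf1 -0.49, Mmd -0.47, Maff -0.46, Zfr -0.42, Hic1 -0.41, Gm2a -0.41, Pdgfa -0.35, Plek -0.35, Sema7a -0.34, Nomo1 -0.34, Cinp -0.33, Trib2 -0.32, Nfil3 -0.30, Oaf -0.29 and Nabp1 -0.28.

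The difference of resting minus activated cells at 16 h passed with a higher ratio in resting cells for Cma1 0.27, Tph1 0.33, Gata2 0.28, Tpsab1 0.46, Rpl37a 0.24, Rpl5 0.34, Uqcrh 0.17, Serpinb1a 0.57, Lars2 1.99, Tnf 0.67, Junb 0.37, Ier2 0.92, Egr1 0.80, Egr3 0.48, Nr4a1 0.35, Csf1 0.49, Hic1 0.28, Pdgfa 0.34, Trib2 0.45, Prnp 0.90, Lyz2 1.01, Tgfbi 1.15, Hp 1.16, Clec7a 0.98, Emp1 0.93, Cd14 0.83, Rsad2 0.93, Ifit3 0.77, Ctsg 0.44, Ifitm1 0.67 and Msr1 0.77. It passed with a lower ratio in resting cells for Havcr2 -0.32, Hdc -0.61, Ldha -0.28, Cox6a1 -0.33, Sema6b -0.36, Zadh2 -0.24, Rab1b -0.19, Il6 -0.46, Traf1 -0.36, Nfkb2 -0.25, Mcm4 -0.24, Uhrf1 -0.60, Cdt1 -0.34, Rgs16 -0.32, Fst -0.44, Mmd -0.23, Sema7a -0.32, Nomo1 -0.49, Cinp -0.26, Nfil3 -0.28, Mcm3 -0.19, Mcm7 -0.34, Serpina3g -0.41, Penk -2.56, Plet1 -2.45, Ccdc184 -2.12, Ccl17 -1.77, Ccl1 -1.53 and Igfbp5 -1.82. Neither Fst nor Ccdc184 passed the background test on the resting 16 h arrays, in either channel.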

How the results depend on the processing

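For anti-TIM-3 over IgG in resting cells at 16 h the 3695 calls became 12493 with median centring, which moved the median gene to 0.30 and made 92.4% of calls higher against 54.0% before. Relative to the median gene it called 11566, with 49.0% higher. The 4 arrays alone gave 1729 calls, leaving out replicates 1 and 3 gave 378, leaving out these and replicate 3 at 2 h, an alternative added after seeing the data, gave 523, and leaving out 1 array at a time gave 1450 to 3648. For 16 h minus 2 h the 49 calls became 19 with the processed signals or the deposited value table, 77 without background subtraction, 302 with median centring, 529 relative to the median gene, 8 with the groups compared alone, 424 with array weights, 4 without replicates 1 and 3, 7 without all 3 wide arrays, and 23 to 1957 with 1 array left out, with 634 without replicate 4 and 316 without replicate 2 at 16 h and 1957 without replicate 3 at 2 h. For resting minus activated cells the 1465 calls became 2213 with median centring, 528 without replicates 1 and 3, 641 without all 3 wide arrays, and 862 to 1686 with 1 array left out. Apart from these and the replicate block, the settings kept each count within 1.5 times; the slide as a random block gave 3724, 42 and 1430. Why the counts moved was not tested.

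With the replicate number as a block the counts were 4301, 275 and 1871. The replicate numbers were not taken as pairs: the correlation of deviations of same-numbered arrays ran from -0.449 to 0.634 against resting cells at 2 h, and not every array correlated best with its own number.

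Of 3344 values of the 176 named genes under 19 alternatives, 2947 kept their side of the threshold, 328 lost the call, 48 gained it, and 21 changed sign with a call on one side or both. Of the 2947, 71 also changed sign, none of them called in either fit. From the processed signals and the value table Rpl36a stood at -0.29, Ftl2-ps at -0.12 and Mcm3 at -0.021, and the mean of probes put Hmgb1 at -0.28. Median centring, relative to the median gene and added after seeing the data, put Havcr2 at 0.046, Lck at -0.17, Il6 at 0.24, Dusp6 at 0.019, Cdt1 at 0.081, Slc6a9 at 0.13, Rgs16 at -0.17, Fst at -0.37, Hic1 at 0.025, Plek at 0.17, Oaf at 0.091, Penk at -0.19, Ccdc184 at -0.41 and Ctsg at 0.20; the cause was not tested. The small number of arrays limits precision, and the offset of 50 understates changes of dim genes.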
